A study of Mus musculus with 6 samples.

Results

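The BMP and activin signals of EpH4 cells were followed through TGFβ1 treatment and its removal in 10 genes, out of 17428 gene symbols measured. They were chosen by name: the BMP ligands *Bmp4*, *Bmp6* and *Bmp7*, the activin subunits *Inhba* and *Inhbb*, the activin-binding protein *Fst* (follistatin), the type I receptor *Acvr1*, and the target genes *Id1*, *Id2* and *Id3*. EpH4 is a near-normal mouse mammary epithelial line. RNA was sequenced from untreated cells (E1 and E2), from mesenchymal cells kept for 7 days in medium with TGFβ1 (M1 and M2), and from reverted epithelial cells returned to normal medium for another 4 days (RE1 and RE2), with 2 biological replicates in each group. All groups are the same cell line grown with serum and insulin, the RE cells came from M cultures, and an untreated culture carried along for the same time was not analysed here. E vs. M compares treated with untreated cells, M vs. RE compares cells after removal with treated cells, and E vs. RE compares the end with the start. Effects of TGFβ1 or of its removal cannot be told apart here from those of time in culture. A difference in E vs. RE may have been present in the M cells or appear only in the RE cells.

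BMPs and activins are secreted dimers of the TGFβ superfamily. BMPs signal through receptors such as ACVR1 and BMPR2 to SMAD1 and SMAD5, activins through ACVR1B and SMAD2 and SMAD3, and TGFβ itself uses the latter pair of SMADs as well. Extracellular proteins such as follistatin, noggin and chordin hold the ligands away from their receptors. The *Id* genes are classical direct targets of BMP signalling, and ID proteins, which lack a DNA-binding region, take E proteins away from DNA.

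The deposited values behave as sequenced bases summed over each gene and amount to between 35782513 (E2) and 47928556 (M1) reads of 50 bases per library. They are given as normalized coverage, in ppm of the scaled library total, and a gene with 3 reads' worth or fewer in every library of a group (0.0635 to 0.0781 ppm, counting error only) was treated as at the floor. A gene was called when limma gave a change beyond 1 on the log2 scale, up or down, and a Benjamini-Hochberg adjusted p below 0.01 over the 13893 genes tested. The E libraries were the least alike, with 1049 genes differing more than 2-fold between E1 and E2, against 274 in the M and 224 in the RE pair. Among the defining markers, *Cdh1* (244 to 327 ppm) and *Krt18* (270 to 880 ppm) were covered in all 6 libraries, *Krt19* was at or under 0.162 ppm, the adipocyte list stayed at the floor, and in the leukocyte list *Ptprc* and *Cd3e* were at the floor in each group. The summed coverage of 4 fibroblast markers was 70.1 and 70.9 ppm in the E libraries, 580 and 679 in the M libraries and 378 and 439 in the RE libraries. *Col1a1* made up most of it (32.2, 497 and 236 ppm on average in E, M and RE cells), while *Dcn* (0.399, at the floor, and 2.77) was called lower in the M cells and *Pdgfra* (18.4, 31.5 and 84.1) and *Dcn* were called higher in RE than in M cells. That of 5 myoepithelial markers was 306 to 374, 787 to 893 and 499 to 501 ppm, of 5 luminal markers 1398 to 1728, 1270 to 1312 and 793 to 846 ppm, of 5 leukocyte markers 6.78 to 10.6, 33.0 to 36.8 and 7.32 to 7.44 ppm, and of 4 endothelial markers 0.370 to 0.560, 2.71 to 2.73 and 0.493 to 0.497 ppm. In the leukocyte list the difference was that of *Csf1r* (1.41, 27.9 and 1.76 ppm), which was called higher in the M cells and lower again in the RE cells, beside *Cd68* (7.19, 6.98 and 5.57 ppm), which was not called. Other lists also held genes that moved apart. Among myoepithelial markers *Krt14* was at 269, 711 and 330 ppm and *Trp63* at 70.4, 49.8 and 165 ppm. *Trp63* was called higher in RE than in M and in E cells. Of the luminal markers, *Krt8*, called lower in RE than in M cells, was at 202, 318.5 and 127 ppm. *Epcam*, called lower in the M cells, was at 313, 130 and 132 ppm. In E vs. RE, 2 of 4 luminal markers tested (*Krt18* and *Epcam*) were called lower in the RE cells (3.17% of all genes). All 4 fibroblast markers were called higher there (6.20% of all genes). Neither list had a call the other way in E vs. RE. The endothelial difference was mostly that of *Cdh5* (0, 2.20 and 0.0667 ppm). The part of other cells or of these genes in the changes below was not tested. Because these are bulk libraries, fewer cells expressing a gene and less RNA per cell cannot be told apart.

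Of the 10 genes, 9 passed the filter on low coverage, and *Bmp7* did not. In E vs. M, 4 of the 9 were called (17.0% of all genes tested were called), namely *Inhba* and *Acvr1*, which rose in the M cells (8.58% of all genes did), and *Bmp4* and *Fst*, which fell (8.39%). On removal of TGFβ1 (M vs. RE), 6 were called (12.9% of all genes). *Bmp4*, *Fst*, *Id2*, *Id3* and *Bmp6* were higher (8.08%) and *Inhba* was lower in the RE cells (4.79%). In E vs. RE, 3 were called (9.37% of all genes), namely *Acvr1*, *Id2* and *Id3*, all higher in the RE cells (6.20% of all genes were higher and 3.17% lower). *Bmp6* passed the filter only through the RE libraries. Among the other 8 genes the counts were 4, 5 and 3, and the median log2 fold changes were −0.27, 0.99 and 0.10, against 0.0013, −0.017 and 0.0079 over all genes tested. The 10 genes were picked with results of these libraries known, so these shares describe them and are not a test of the pathway. Each group enters 2 of the comparisons, so that a low M value, for instance, counts in both E vs. M and M vs. RE. Scaling by library totals moved the share of all called genes that were higher (E vs. M 50.6%, M vs. RE 62.8%) to 30.5% and 73.8%, and left the counts of the 10 genes at 4, 6 and 3.

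**Figure D1:**
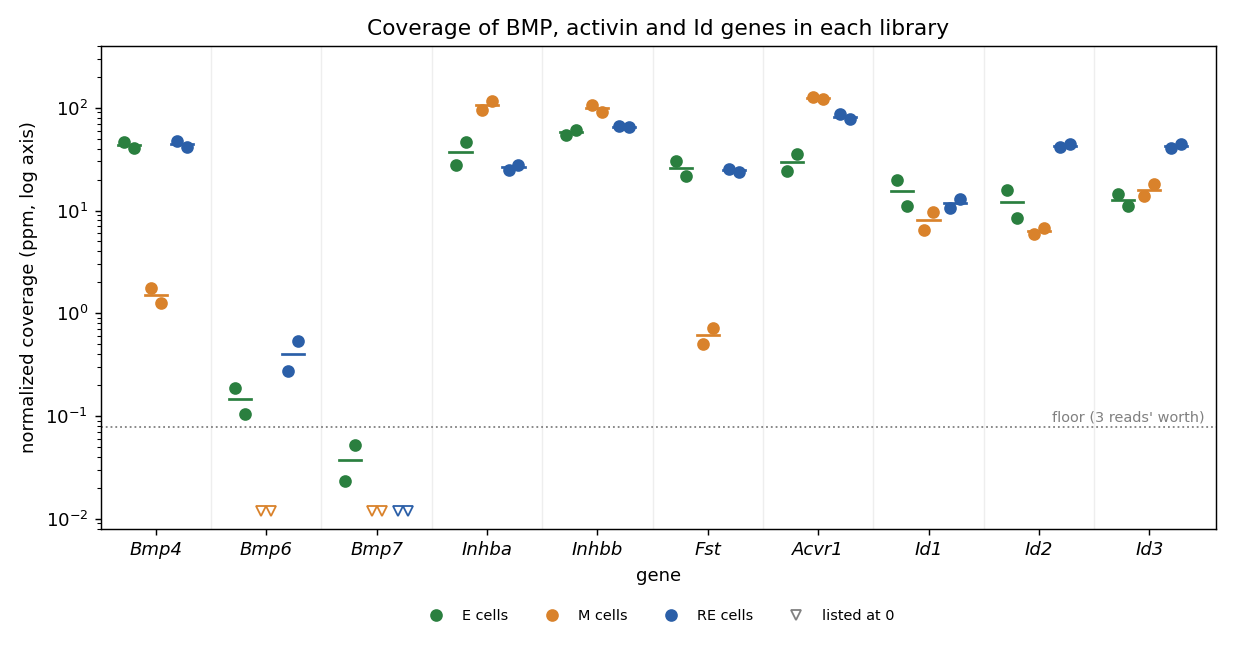
Normalized coverage (ppm, log axis) of the 10 genes in each library, with 1 point per library, short lines for group means (n = 2), open triangles for libraries listed at 0 and a dotted line at the highest floor of any library. *Bmp4* and *Fst* lie between 0.503 and 1.75 ppm in the M cells and above 21 ppm elsewhere, while *Id2* and *Id3* lie above 40 ppm in the RE cells and at 18.0 ppm or below elsewhere.

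*Bmp4* encodes a BMP ligand. Its coverage was 46.5 ppm in E1 and 40.4 in E2, 1.75 in M1 and 1.26 in M2, and 47.0 in RE1 and 41.1 in RE2. Both M libraries lay far below the other 4, and the E and RE libraries overlapped. The E mean was 43.4 ± 4.27 ppm (SD, n = 2) and the M mean 1.501 ± 0.346, 28.9-fold lower (log2 fold change −4.78 ± 0.20 SE, limma adjusted p = 9.79e-06). After removal of TGFβ1 it rose 29.3-fold to 44.0 ± 4.18 (4.80 ± 0.20 SE, limma adjusted p = 1.15e-05). No difference between RE and E cells was detected (log2 fold change 0.02, 95% confidence interval −0.44 to 0.48, limma adjusted p = 0.946). The sequence just upstream of the *Bmp4* start is shown because this was the BMP ligand that carried nearly all the coverage of the 3 and changed most. It is taken from RefSeq (GRCm38.p6, chr14:46390670-46390919, minus strand) and covers the 250 bases before the annotated start. Capitals mark the only match to any of 4 motifs searched on both strands (the SMAD-binding motifs GGCGCC and CAGAC, the palindrome GTCTAGAC and the E-box CAGGTG). This was CAGGTG, an E-box bound by epithelial-mesenchymal transition factors of the ZEB and Snail families, which begins 177 bases before the start and which 17.2% of 32851 such windows hold.
*Bmp4* upstream window: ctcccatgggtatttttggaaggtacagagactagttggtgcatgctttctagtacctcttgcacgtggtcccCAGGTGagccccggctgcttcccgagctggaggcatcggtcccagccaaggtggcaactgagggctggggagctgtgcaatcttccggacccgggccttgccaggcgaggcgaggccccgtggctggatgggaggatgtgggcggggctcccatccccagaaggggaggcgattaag

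The other BMP ligands were scarcely covered. *Bmp6* was at 0.189 and 0.104 ppm in the E libraries, listed at 0 in both M libraries and at 0.275 and 0.534 ppm in the RE libraries. Its highest value stands for 23 reads' worth. The RE mean was at least 5.59-fold and the E mean at least 2.02-fold above the M floor. The rise from M to RE was called (limma adjusted p = 0.00595), but a gene that passed the filter through the RE cells alone had to be higher there, and the call was lost with a pseudocount of 1 ppm (log2 fold change 0.48) or without either M library (adjusted p = 0.0481 and 0.0445 by limma). *Bmp7* had 1 or 2 reads' worth in the E libraries and was listed at 0 in the other 4, so it was at the floor throughout.

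*Inhba* encodes the βA subunit that forms activin A. Its coverage was 27.5 and 46.2 ppm in E1 and E2, 96.1 and 116 in M1 and M2, and 24.99 and 27.5 in RE1 and RE2. The M libraries lay above all others, and the E libraries were unequal, 1.68-fold apart. The mean rose 2.88-fold, from 36.8 ± 13.2 ppm (SD, n = 2) with no treatment to 106 ± 14.15 with TGFβ1 (log2 fold change 1.56 ± 0.24 SE, limma adjusted p = 0.002). It fell 4.04-fold to 26.3 ± 1.79 in the RE cells (−2.01 ± 0.24 SE, limma adjusted p = 0.000829), not far enough from the E mean to be called (−0.44, 95% confidence interval −1.0 to 0.12). The rise was not called without M1 (limma adjusted p = 0.015) or M2 (0.0259), and the fall not without M2 (0.0131) or RE1 (0.0141).

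*Inhbb*, for the βB subunit of activin B, was also at its highest with TGFβ1. It was at 54.3 and 61.4 ppm in the E libraries, 107 and 90.4 in the M libraries and 66.5 and 64.6 in the RE libraries. The M libraries again lay highest, without overlap. The M mean was 1.70 times the E mean (log2 fold change 0.76 ± 0.14 SE, limma adjusted p = 0.00459), which is under the fold threshold, and was called when the fold threshold was 1.5. The RE cells did not differ detectably from the E cells (0.18, 95% confidence interval −0.15 to 0.51, limma adjusted p = 0.358).

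*Fst*, whose product binds activins tightly and BMPs more weakly, had the largest log2 difference of the 9 genes tested in E vs. M. Its coverage was 30.2 and 21.5 ppm in E1 and E2, 0.503 and 0.714 in M1 and M2, and 25.4 and 23.9 in RE1 and RE2. The M libraries held 21 reads' worth at the least, above the floor but far below every other library. The mean fell 42.5-fold from 25.8 ± 6.17 ppm (SD, n = 2) to 0.608 ± 0.149 (log2 fold change −5.19 ± 0.23 SE, limma adjusted p = 1.2e-05). It rose 40.5-fold to 24.6 ± 1.07 in the RE cells (5.14 ± 0.23 SE, limma adjusted p = 1.27e-05), with no detectable difference from the E cells (−0.05, 95% confidence interval −0.60 to 0.50).

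A ratio between genes of one library does not depend on how libraries were scaled to each other, so ligand and antagonist were also compared as coverage per kilobase of merged exons. The ratio of *Inhba* to *Fst* was 0.404 in E1 and 0.953 in E2, 84.6 in M1 and 72.1 in M2, and 0.436 in RE1 and 0.511 in RE2. Per kilobase, *Fst* coverage thus exceeded that of *Inhba* in all 4 E and RE libraries and was a small fraction of it in both M libraries. The order in the E and RE libraries rests on the exon lengths used. In ppm, *Inhba* lay above *Fst* in E2 (46.2 against 21.5) and RE2 (27.5 against 23.9) and below it in E1 and RE1. The ratio of *Inhba* to *Inhbb* per kilobase stayed below 1 throughout, at 0.338 and 0.501 in the E, 0.600 and 0.855 in the M and 0.250 and 0.283 in the RE libraries. In ppm *Inhba* lay above *Inhbb* in M2 alone (116 against 90.4). *Bmp4* could not be set against *Bmp7*, which was at the floor. With 2 libraries a group, no exact permutation test of such a ratio can go below p = 0.333 (two-sided), and these are descriptions.

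**Figure D2:**
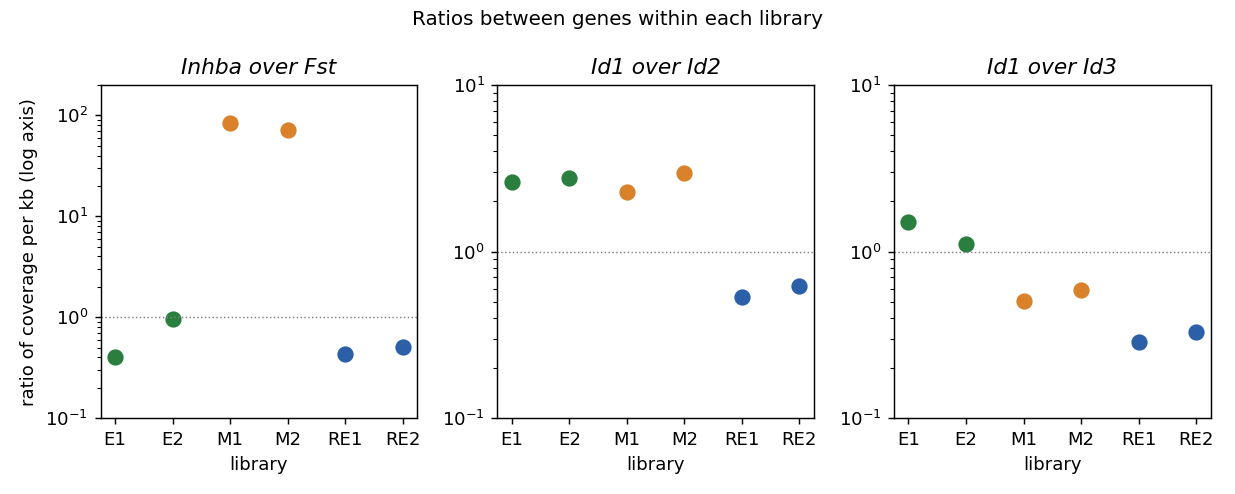
Ratios of coverage per kilobase within each of the 6 libraries (log axes, dotted line at 1) for *Inhba* over *Fst*, *Id1* over *Id2* and *Id1* over *Id3*. The first is 72.1 or more in both M libraries and below 1 elsewhere, while *Id1* over *Id2* drops below 1 in the RE libraries alone.

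*Acvr1*, the type I receptor also called ALK2, was called higher in M cells and in RE cells, each against E cells. Its coverage was 24.2 and 35.2 ppm in the E libraries, 127 and 121 in the M libraries and 87.0 and 77.4 in the RE libraries. The 3 groups did not overlap, and the RE libraries lay between the others. The mean rose 4.17-fold from 29.7 ± 7.84 ppm (SD, n = 2) to 124 ± 3.83 with TGFβ1 (log2 fold change 2.08 ± 0.19 SE, limma adjusted p = 0.000183). In the RE cells it was 82.2 ± 6.82, still 2.77-fold above the E cells (1.49 ± 0.19 SE, limma adjusted p = 0.00185), and the step down from M to RE was not called (−0.59, 95% confidence interval −1.03 to −0.15, adjusted p = 0.0491). The difference left between RE and E was 0.715 of that between M and E on the log2 scale, with the same E libraries in both terms. The E vs. RE call was lost when only the E and RE libraries were fitted (limma adjusted p = 0.0119) and without RE1 (0.035) or RE2 (0.0204).

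Of the 3 *Id* genes, *Id2* and *Id3* were called, both higher in the RE cells, and *Id1* was not. *Id2* was at 15.8 and 8.47 ppm in E1 and E2, 5.88 and 6.76 in M1 and M2, and 41.3 and 44.2 in RE1 and RE2. Its RE libraries stood above all others, and both M libraries lay below both E libraries. The RE mean, 42.8 ± 2.07 ppm (SD, n = 2), was 6.77-fold above the M mean of 6.32 ± 0.624 (log2 fold change 2.74 ± 0.28 SE, limma adjusted p = 0.000337) and 3.53-fold above the E mean of 12.1 ± 5.16 (1.88 ± 0.28 SE, adjusted p = 0.00315). E vs. M was not called (−0.86 ± 0.28 SE, limma adjusted p = 0.0394). Leaving out 1 library at a time, it ran from −1.33 without E2 to −0.42, and was called only without E2. E2 was the lower of the E libraries, which were 1.86-fold apart.

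*Id3* was at 14.5 and 11.02 ppm in the E libraries, 13.9 and 18.0 in the M libraries and 40.4 and 44.0 in the RE libraries. The E and M libraries overlapped (log2 fold change 0.33, 95% confidence interval −0.13 to 0.78, limma adjusted p = 0.216), and both RE libraries stood above them. The RE mean of 42.2 ± 2.52 ppm (SD, n = 2) was 2.64-fold above that of the M cells (1.41 ± 0.20 SE, limma adjusted p = 0.00162) and 3.31-fold above that of the E cells (1.73 ± 0.20 SE, adjusted p = 0.00122). The calls of *Id2* and *Id3* against the E cells were both lost without RE1 (adjusted p = 0.0398 and 0.0225 by limma) or RE2 (0.0341 and 0.0202). That of *Id2* was also lost without M1 or M2 (0.0106 each) and in a fit of E and RE alone (0.0146). Against the M cells *Id2* kept its call under all 17 alternatives run, and *Id3* lost it without M1 (0.0241), RE1 (0.0203) or RE2 (0.0235).

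*Id1* was at 19.7 and 11.1 ppm in the E libraries, 6.42 and 9.59 in the M libraries and 10.5 and 13.1 in the RE libraries. It was highest in E1 and lowest in M1, and the RE libraries overlapped the range of the E libraries. It was not called in any of the 3 comparisons, with log2 fold changes of −0.91 in E vs. M (limma adjusted p = 0.0484), 0.57 in M vs. RE (0.201) and −0.34 between E and RE (0.438). Leaving out 1 library at a time, the E vs. M difference ran from −1.34 without E2 to −0.50, and was called only without E2. Within libraries, the ratio of *Id1* to *Id2* per kilobase was 2.62 and 2.77 in the E and 2.29 and 2.98 in the M libraries, and 0.533 and 0.621 in the RE libraries. The ratio of *Id1* to *Id3* was 1.5 and 1.11 in the E libraries, then 0.507 and 0.586 in the M and 0.285 and 0.327 in the RE libraries. The *Id* genes therefore exchanged rank: *Id1* led *Id2* in all 4 E and M libraries and trailed it in both RE libraries.

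Upstream sequence is shown for *Id2* and *Id3*, the genes called higher in the RE cells against E and M cells alike. Both are from RefSeq (GRCm38.p6) and end at the base before the annotated start, at chr12:25096093-25096342 on the minus strand for *Id2* and at chr4:136143572-136143821 on the plus strand for *Id3*. Capitals mark matches, on either strand, to GGCGCC (a GC-rich element bound by SMADs of the BMP branch, in 9.59% of the 32851 windows), CAGAC (a short SMAD-binding sequence, in 42.2%), GTCTAGAC (a palindromic SMAD-binding sequence that does not contain CAGAC, in 0.167%) and CAGGTG. *Id2* has 1 GGCGCC that begins 231 bases before the start, *Id3* has 2 CAGAC matches at 167 and 68 bases, the latter read as GTCTG on the strand shown, and neither window holds the other motifs. Of the 10 genes, 7 had a window in the RefSeq table (not *Bmp7*, *Fst* and *Id1*). The *Bmp6* window holds 1 CAGAC and 1 CAGGTG, and those of *Inhba*, *Inhbb* and *Acvr1* hold none of the motifs. A match is a run of letters, not a shown binding site.
*Id2* upstream window: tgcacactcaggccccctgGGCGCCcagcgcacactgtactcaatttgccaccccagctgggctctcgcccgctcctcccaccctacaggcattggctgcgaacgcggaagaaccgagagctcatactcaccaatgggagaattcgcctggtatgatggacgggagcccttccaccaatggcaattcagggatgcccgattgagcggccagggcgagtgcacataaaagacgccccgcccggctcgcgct
*Id3* upstream window: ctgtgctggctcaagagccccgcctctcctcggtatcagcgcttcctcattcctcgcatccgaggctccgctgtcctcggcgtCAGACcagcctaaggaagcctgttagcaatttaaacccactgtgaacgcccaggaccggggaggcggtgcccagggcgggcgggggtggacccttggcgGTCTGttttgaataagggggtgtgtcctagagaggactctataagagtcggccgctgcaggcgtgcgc

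**Figure D3:**
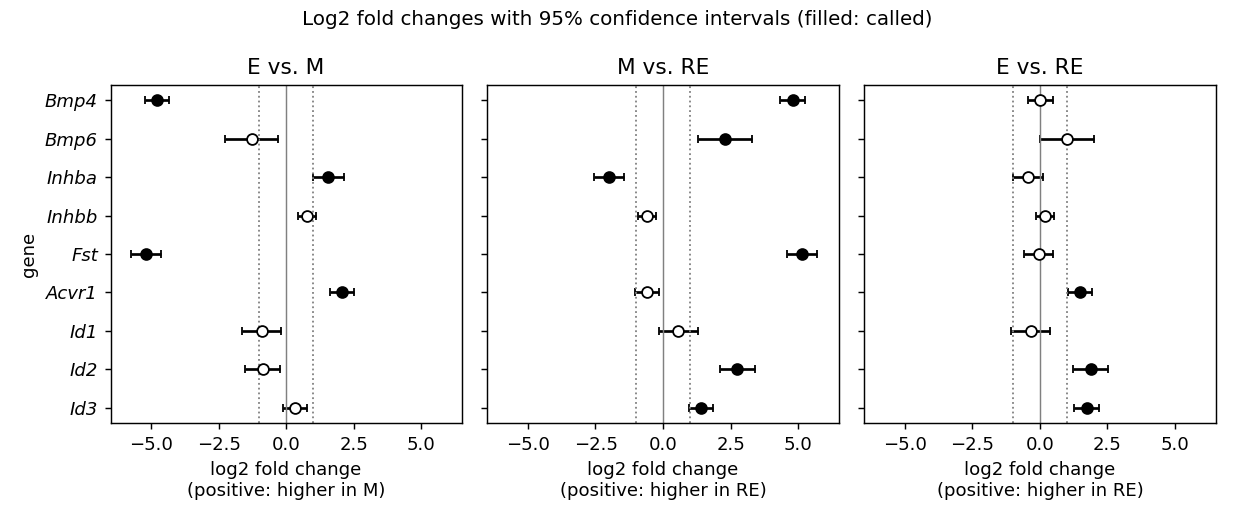
Log2 fold changes of the 9 genes tested, with 95% confidence intervals from limma, in E vs. M, M vs. RE and E vs. RE. Filled points were called, dotted lines mark the fold threshold, and positive values mean higher in the group named second. *Bmp4* and *Fst* are at −4.78 and −5.19, then at 4.80 and 5.14, and in E vs. RE at 0.02 and −0.05, whereas *Acvr1*, *Id2* and *Id3* stay to the right in E vs. RE.

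Per kilobase, the order of levels differed between states. In the E cells *Bmp4* led with 21.1 ± 2.07 ppm per kb (SD, n = 2), and the 7 genes from *Inhbb* (13.6 ± 1.19) down through *Id1*, *Id3*, *Fst*, *Acvr1* and *Inhba* to *Id2* (4.97 ± 2.12) each overlapped their neighbour in the order. In the M cells the order was *Acvr1* (34.1 ± 1.06), *Inhbb* (23.2 ± 2.70), *Inhba* (16.6 ± 2.22), *Id3* (12.5 ± 2.26), *Id1* (6.90 ± 1.93), *Id2* (2.59 ± 0.256), *Bmp4* (0.728 ± 0.168) and *Fst* (0.215 ± 0.0525), and no neighbours overlapped. In the RE cells *Id3* led with 33.0 ± 1.97, followed by *Acvr1* (22.6 ± 1.88) and *Bmp4* (21.3 ± 2.03), which overlapped, and then by *Id2* (17.5 ± 0.849), *Inhbb* (15.4 ± 0.315), *Id1* (10.1 ± 1.58), *Fst* (8.70 ± 0.378) and *Inhba* (4.11 ± 0.280), none of which did. Lengths came from a newer annotation than the build used for mapping, so levels of different genes are approximate.

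Among 10096 genes with a mean log2 coverage of at least 2, the profile nearest to that of *Bmp4* over the 6 libraries was that of *Fst*, and the nearest to *Fst* was *Bmp4* (Euclidean distance 0.791 between centred log2 values). The next nearest to both was *Lcn2* (26.2 ± 7.18 ppm in E, 0.588 ± 0.0193 in M and 14.6 ± 0.946 in RE cells), at 0.945 and 0.944. The nearest to *Inhba* were *Ptgfrn* and *Pvr* (0.284 and 0.301), to *Inhbb* *Hdlbp* and *Ptk2* (0.109 and 0.121), to *Acvr1* *Antxr2* and *AC107664.8* (0.234 and 0.274), to *Id1* *Pcbd2* and *Ptrh2* (0.305 and 0.386), to *Bmp6* *4930572J05Rik* and *Nr4a1* (0.559 and 0.574), to *Id2* *Gpr115* and *Aqp1* (0.414 and 0.551) and to *Id3* *Lgr4* and *4631416L12Rik* (0.342 and 0.42). *Lgr4* was at 25.8 ± 0.613, 33.3 ± 1.95 and 87.4 ± 4.58 ppm. The profile of *Bmp6* depends on the 0.1 ppm added before taking logs, since both of its M libraries were listed at 0. These distances share libraries and are descriptions.

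The rest of the pathway was taken from a list of 76 other ligands, receptors, antagonists, SMADs, targets and E proteins. Of these, 60 were in the table and 47 were tested. With TGFβ1 (E vs. M) 8 rose and 8 fell. On its removal (M vs. RE) 9 rose and 3 fell. Between the start and the end (E vs. RE) 6 were called higher and 3 lower. The shares called were 34.0%, 25.5% and 19.1%, against 17.0%, 12.9% and 9.37% of all genes. Median log2 fold changes were 0.43, −0.01 and 0.46. Without the 4 genes that passed the filter through 1 group only or were at the floor in a group, 43 genes gave 14, 10 and 8 calls, with the same medians. Beside the called *Gdf6* and *Acvrl1*, 7 listed genes were at the floor in 1 or 2 groups (*Bmp5*, *Bmp8a*, *Nodal*, *Inhbe*, *Bmpr1b*, *Chrdl2* and *Grem1*), and *Bmp3* and *Bmp15* were at the floor in all 3. These counts moved with single libraries: E vs. M gave 5 calls without M1 and 7 without M2, M vs. RE gave 6 without M1, M2 or RE1 and 7 without RE2, and E vs. RE gave 4 without M1 or M2, 14 without E2, 1 without RE2 and none without RE1. A call named below with neither a tally nor a loss was made under every alternative in which its gene was tested.

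Among other ligands, 1 of 6 tested was called in E vs. M (16.7%, against 17.0% of all genes), a share near that of all genes. That was *Gdf6*, listed at 0 in both M libraries and at least 3.94-fold higher in the E cells (0.285 ± 0.0883 ppm, SD, n = 2) and 4.36-fold higher in the RE cells (0.315 ± 0.0875). These calls were made in 8 and 11 of 16 alternatives, the first lost without any 1 library but E2 (limma adjusted p up to 0.045) and the second without any 1 of the M and RE libraries (up to 0.0628). *Gdf15*, a stress-induced ligand, was at 0.749 ± 0.0424 in the E cells, through which alone it passed the filter, 0.144 ± 0.0361 in the M and 0.101 ± 0.0864 in the RE cells, and was called lower in E vs. RE in 6 of 14 alternatives, though not without any 1 of the M and RE libraries (limma adjusted p from 0.0218 to 0.0774). *Gdf5* was called in E vs. RE just past both thresholds (log2 fold change 1.02, limma adjusted p = 0.00779), and in 6 of 17 alternatives, the call being lost without any 1 library but E1 (adjusted p up to 0.0787, and without E2 by its fold).

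Of 10 other receptors and co-receptors tested, 4 were called higher and 1 lower in the M cells (8.58% and 8.39% of all genes). The 4 include *Acvrl1*, which passed the filter only through the M cells. *Bmpr2*, the type II BMP receptor, was at 27.7 and 68.9 ppm in E1 and E2, 183 and 224 in the M libraries and 132 and 111 in the RE libraries. Its M mean was 4.22 times the E mean (log2 fold change 2.21, limma adjusted p = 0.00298), and its E vs. RE difference (1.47, adjusted p = 0.023) was not called. The E vs. M difference of *Bmpr2* ran from 1.56 without E1 to 2.84 without E2, and its call was lost without M1 (limma adjusted p = 0.0203) or M2 (0.0297). *Bmpr1a* was at 62.1 and 61.7 ppm in the E, 129 and 119 in the M and 127.5 and 119 in the RE libraries, with a log2 fold change of 1.0 at the threshold in E vs. M (limma adjusted p = 0.000771) and 0.99, not called, in E vs. RE. That call was made in 11 of 17 alternatives, and lost without E2 (log2 fold change 0.97), M1 (limma adjusted p = 0.0187) or M2 (0.0123). *Eng* (endoglin) was at 120 ± 8.25, 414 ± 3.46 and 229 ± 6.98 ppm and was called in E vs. M (1.79, limma adjusted p = 6.15e-05). *Acvrl1* (ALK1) was at the floor in the E cells and at 1.31 and 1.18 ppm in the M libraries, at least 16.9-fold higher (limma adjusted p = 0.000763). It fell again in the RE libraries to 0.0847 and 0.205 ppm (log2 fold change −2.50, limma adjusted p = 0.00285). Because it passed the filter through the M cells alone, it had to be higher there, and neither p-value tests that direction. The E vs. M call was made in all 14 alternatives that tested the gene. It was not tested without M1 or M2, or with the filter in every library. The M vs. RE call was made in 11 of 14 alternatives and lost without RE1 (log2 fold change −2.14) or RE2 (−2.86). *Rgma*, a BMP co-receptor, went the other way, from 16.6 ± 2.26 ppm in the E to 7.75 ± 1.90 in the M and 50.6 ± 1.31 in the RE cells, called with TGFβ1 (−1.11, limma adjusted p = 0.00426), after removal (2.71, adjusted p = 8.26e-05) and in E vs. RE (1.61, adjusted p = 0.00176). The first of these was made in 12 of 17 alternatives and lost without E2 (log2 fold change −0.99), M1 (limma adjusted p = 0.0431), RE1 (0.0155) or RE2 (0.0156), and the last in 15 of 17 and lost without RE1 (0.0295) or RE2 (0.0254).

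Of 11 genes tested from the list of antagonists and related regulators, 2 were called higher and 2 lower in the M cells (8.58% and 8.39% of all genes). The classical BMP antagonists *Nog* (noggin) and *Chrd* (chordin) were lower. *Nog* was at 1.83 and 1.35 ppm in the E, 0.119 and 0.0971 in the M and 0.275 and 0.455 in the RE libraries. Its M values (249 and 200 bases) lay close to the floor of 150 bases, so the size of its fall is uncertain. The log2 fold change of *Nog* in E vs. M ran from −3.59 to −1.22 over the alternatives. Its M mean was 14.7-fold under the E mean (log2 fold change −3.01, limma adjusted p = 0.000511), and the RE mean was still called lower than in the E cells (−1.87, adjusted p = 0.00697), in 8 of 16 alternatives, but not without M1 (0.0198), M2 (0.0193), RE1 (0.0807) or RE2 (0.0303). *Chrd* fell 5.70-fold from 3.35 ± 0.640 to 0.588 ± 0.182 ppm (−2.34, limma adjusted p = 0.000584) and rose to 4.27 ± 0.3001 in the RE cells (2.69, adjusted p = 0.000354). *Chrdl1*, a chordin-like BMP antagonist, was at 5.83 and 7.39 ppm in the E, 5.02 and 4.53 in the M and 41.7 and 36.8 in the RE libraries, which stood 8.22-fold above the M mean (3.01, limma adjusted p = 3.66e-05) and 5.94-fold above the E mean (2.56, adjusted p = 0.000333), the latter in 16 of 17 alternatives and not without RE1 (0.0117). *Bmper* (18.4 ± 2.15, 54.5 ± 7.57 and 16.5 ± 1.17 ppm) was called higher in the M cells (1.56, limma adjusted p = 0.000382) and lower again in the RE cells (−1.72, adjusted p = 0.000282). *Twsg1* (18.0 ± 5.26, 52.5 ± 2.16 and 38.2 ± 2.13 ppm) was higher in the M cells (1.57, limma adjusted p = 0.000939) and, in 10 of 17 alternatives as in the reported fit, in the RE cells against the E cells (1.11, adjusted p = 0.00708). The *Twsg1* call in E vs. M was made in 15 of 17 alternatives and lost without M1 (limma adjusted p = 0.0124) or M2 (0.0148), and that in E vs. RE was lost without any 1 library but E2 (up to 0.0825, and without E1 by its log2 fold change of 0.81).

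Among 10 SMAD and SMURF genes, 2 were called in E vs. M, both higher in the M cells, and 1 in M vs. RE, lower in the RE cells. At 20% and 10% these shares are near the 17.0% and 12.9% of all genes. *Smad5*, a transducer of BMP signals, was at 46.5 ± 15.7, 140 ± 10.9 and 97.6 ± 7.62 ppm (SD, n = 2) and rose in the M cells (log2 fold change 1.63, limma adjusted p = 0.00119). *Smurf2*, a ubiquitin ligase for SMADs and receptors, rose as well (1.45, limma adjusted p = 0.000641). The inhibitory *Smad7* fell in M vs. RE from 41.8 ± 5.29 to 15.9 ± 2.98 ppm (−1.40, limma adjusted p = 0.00114). Without M1 or M2 the calls of *Smad5* (limma adjusted p = 0.0173 and 0.0125) and *Smurf2* (0.0104 and 0.0113) were lost, each made in 15 of 17 alternatives, and that of *Smad7*, made in 14 of 17, was lost without M1 (0.0107), M2 (0.0201) or RE1 (0.0185). *Smad6*, the inhibitory SMAD that BMPs induce, was at 6.46 and 3.96 ppm in the E, 5.34 and 6.19 in the M and 8.15 and 10.1 in the RE libraries and was not called.

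Of 7 other BMP target genes tested, 4 were called in E vs. M, all lower in the M cells (8.39% of all genes), and 4 in M vs. RE, all higher in the RE cells (8.08% of all genes). Both counts use the same M libraries. *Id4*, the remaining *Id* gene, was at 1.51 and 1.29 ppm in the E, 0.0719 and 0.252 in the M and 2.28 and 5.22 in the RE libraries (log2 fold change −2.60, limma adjusted p = 0.00418 with TGFβ1, and 3.85, adjusted p = 0.000906 after removal), the first in 13 of 16 alternatives and not without M1 (0.0345). The *Id4* value in M1 equals the floor of that library (0.0719 ppm), so the size of its changes is uncertain. *Atoh8*, a helix-loop-helix factor, was at 1.35 and 0.677 ppm in the E, 0.192 and 0.209 in the M and 7.78 and 9.91 in the RE libraries. It was called with TGFβ1 (−1.82, limma adjusted p = 0.00473), on removal (4.89, adjusted p = 6.03e-05) and, as with *Id2* and *Id3*, also above the E cells (3.06, adjusted p = 0.00116), 8.72-fold by the means. The *Atoh8* call in E vs. M was made in 9 of 16 alternatives and lost without M1 (limma adjusted p = 0.0374), M2 (0.0314), RE1 (0.0149) or RE2 (0.0152), and that in E vs. RE in 14 of 16 and lost without RE1 (0.0193) or RE2 (0.0194). The homeobox gene *Msx2* was at 77.6 and 89.3 ppm in the E, 17.1 and 14.1 in the M and 30.2 and 32.8 in the RE libraries, falling with TGFβ1 (−2.42, limma adjusted p = 4.42e-05), rising after removal (1.02, adjusted p = 0.00258) and still below the E cells then (−1.40, adjusted p = 0.00119). The rise was called in 12 of 17 alternatives but not without any 1 of the M and RE libraries (limma adjusted p from 0.0167 to 0.0388), and the last difference in 15 of 17 but not without RE1 (0.0269) or RE2 (0.0173). *Dlx5*, another homeobox gene, was at 0.868 ± 0.301, 0.229 ± 0.0522 and 1.10 ± 0.0975 ppm, called in E vs. M (−1.53, limma adjusted p = 0.00873) and on removal (1.88, adjusted p = 0.00472). These calls were made in 7 and 11 of 16 alternatives, the first lost without any 1 library but E1 (limma adjusted p from 0.0137 to 0.0696) and the second without any 1 of the M and RE libraries (from 0.0264 to 0.0494). *Msx1*, *Hey1* and *Dlx3* were not called. Of the 3 E protein genes, the partners of ID proteins, *Tcf4* was called higher in the RE cells than in the M (1.09, limma adjusted p = 0.00949) and the E cells (1.28, adjusted p = 0.00609), in 8 and 10 of 17 alternatives. The first was lost without any 1 of the M and RE libraries (up to 0.0835), and the second without any 1 library but E2 (up to 0.0703, and without E1 by its log2 fold change of 0.91). E2A (listed under its older symbol *Tcfe2a*) and *Tcf12* were not called.

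**Figure D4:**
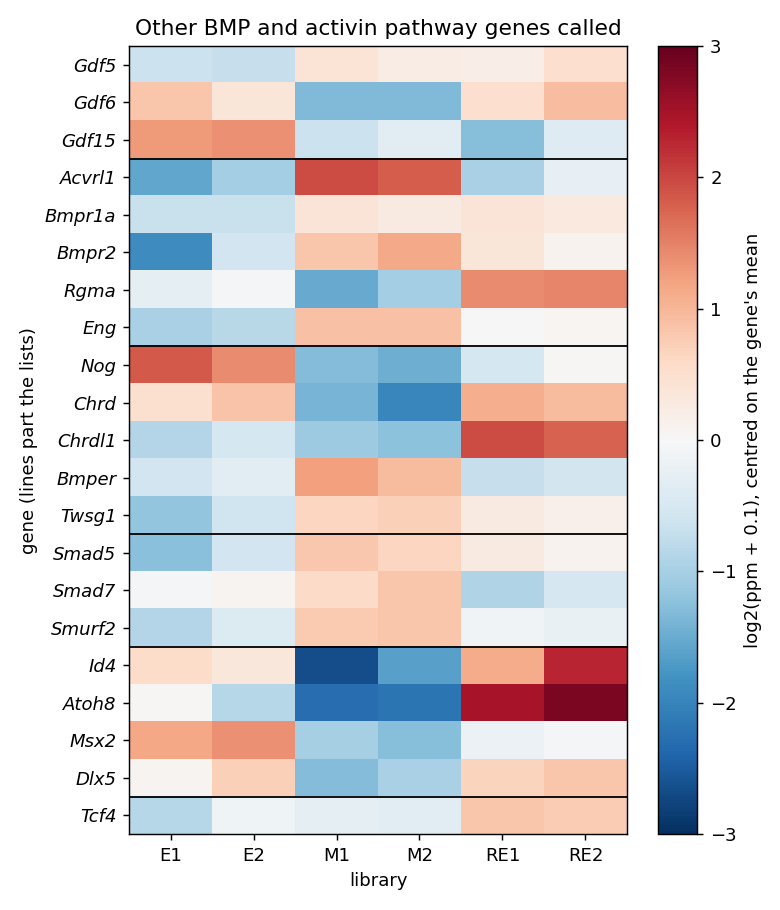
Log2(ppm + 0.1), centred on each gene's mean, in the 6 libraries for the 21 other pathway genes called in at least 1 comparison, grouped as ligands, receptors, antagonists, SMADs and SMURFs, target genes and E proteins. *Id4*, *Atoh8* and *Dlx5* are lowest in the M libraries, and *Atoh8*, *Chrdl1* and *Rgma* are highest in both RE libraries.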

How the data were processed

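RNA of 2 biological replicates each of E, M and RE cells was sequenced on an Illumina Genome Analyzer. The authors mapped unique reads to NCBI-m37 with Bowtie and TopHat2, and edgeR is also named in their processing notes. Versions and the step that summed reads per gene are not given in the sources used here. The deposited values are named as counts but behave as coverage (signal) in bases per gene symbol, not scaled by library. They were therefore not treated as read counts, and limma replaced the count test of the methods.

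Here, values were scaled by unweighted TMM factors over all genes (trims of 30% on the ratios and 5% on the means) to ppm. A gene needed 500 bases (10 reads' worth) in 2 libraries, and the 13893 that had it were fitted with limma 3.58.1 in R 4.3.3 on log2(ppm + 0.1), which understates changes of low genes, with all 6 libraries, group only and a trend on mean expression. The fit was tested on simulated data. Genes sharing exons or near-identical copies may share coverage. Merged exon lengths came from GENCODE vM21 (GRCm38), and motifs were searched in the 250 bases upstream of RefSeq starts. In the pathway list, 16 genes were not analysed here because no row carried their symbol, and *Kcp* and E2A were read under older symbols. The 10 genes, the lists and the tests were chosen with earlier results of these data known. Named are the 10 genes, each other pathway gene called or at the floor in a group, and the nearest profiles. Other single genes were named after their values were seen. Alternatives were other thresholds, scalings, filters and pseudocounts, a fit of the 2 groups compared, array weights, the replicate number as a block, and leaving out each library. The value of 1 marker gene is not reported here.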

Additional observations from a re-analysis of the deposited data

How the results depend on the processing

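Of the 10 genes, the number called was the same or moved by at most 1.5 times under every alternative tried except these. A fit of only the 2 groups compared called 1 in E vs. RE in place of 3. Leaving out 1 library at a time gave 3 to 6 in E vs. M (reported 4), 3 to 6 in M vs. RE (reported 6) and 0 to 3 in E vs. RE, with 0 without RE1 or RE2 and 3 in M vs. RE without RE1. A group then holds 1 library, which is assumed to vary like the other groups. Other pathway genes called numbered 16, 12 and 9 in E vs. M, M vs. RE and E vs. RE. They numbered 10 in E vs. M and 6 in M vs. RE with the filter in every library, 7 in M vs. RE with a pseudocount of 1, and 4 in E vs. RE in the fit of 2 groups. Without 1 library they ran from 5 to 18, from 6 to 13 and from 0 to 14. The cause was not tested. Signs changed only for differences that were not called: *Bmp4* in E vs. RE with library totals (−0.075) and without E2 (−0.076) or RE1 (−0.077), *Fst* in E vs. RE without E1 (0.20) and *Id1* in E vs. RE without E1 (0.070). Without 1 library at a time these differences ran from −0.077 to 0.12 (*Bmp4*), −0.29 to 0.20 (*Fst*) and −0.74 to 0.070 (*Id1*). Calls of *Bmp4* and *Fst* in E vs. M and M vs. RE held under all 17 alternatives. Scaling by library totals shifted the median of all genes to −0.29 in E vs. M and 0.18 in M vs. RE, the 10 genes' counts staying at 4, 6 and 3. For the pairing check, same-numbered libraries share only a number in the labels. Their deviations from the group means had correlations across genes of 0.267 (E with M), 0.058 (E with RE) and 0.116 (M with RE). With the replicate block, 4, 6 and 3 of the 10 genes and 17, 12 and 8 other pathway genes were called, and the counts over all genes went from 2358, 1789 and 1302 to 2431, 1830 and 1284.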
